A study of Rattus norvegicus with 12 samples.

Results

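The serum- and glucocorticoid-regulated kinases (SGK), the subunits of the mTORC2 complex that switch them on and the ubiquitin ligase Nedd4l were followed in the prefrontal cortex (PFC) of rats after acute footshock (FS) stress. The set named 9 genes, namely Sgk1, Sgk2, Sgk3, Prr5, Prr5l, Rictor, Mlst8, Mapkap1 and Nedd4l. They were selected on their roles around Sgk1, which was itself chosen by its known difference between these same groups, and each gene was read from the probe set that carries its symbol alone and has the highest mean over the arrays. In this way 8 of the 9 genes could be measured, among 14847 genes tested, and Sgk3 had no probe set in the annotation used here. All 8 passed the filter on low signal, a mean log2 value above 4.

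The animals were adult male Sprague-Dawley rats. The stressed group (Stress, 6 rats) went through 40 min of inescapable FS at 0.8 mA, of which 20 min were actual shock with random gaps of 2 to 8 s, and was then returned to the home cage. The control group (Control, 6 rats) stayed in its home cages without disturbance. Tissue was collected 2 h after the session started, and each rat gave 1 whole-transcript array. The whole PFC was taken without separating its subregions or cell types, so fewer cells of a type and less RNA per cell cannot be told apart in these values.

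SGK kinases belong to the AGC family and resemble AKT in their catalytic domain. mTORC2, which is built around mTOR with Rictor, Sin1 (gene Mapkap1), mLST8 and Protor-1 or Protor-2 (genes Prr5 and Prr5l), phosphorylates the hydrophobic motif at their carboxyl end, and this lets the kinase PDK1 phosphorylate the activation loop. Sgk1 is unusual in the family because its mRNA is strongly controlled by hormones, among them the glucocorticoids that the adrenal releases during stress. One of its best known targets is Nedd4-2, the product of Nedd4l, which marks the epithelial sodium channel and other membrane proteins for removal until SGK1 phosphorylates it.

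Signals are log2 values after robust multi-array averaging (RMA), and differences are stressed minus control from a linear model fitted with limma to all 16085 named probe sets with a mean above 4. Adjusted p-values were corrected over all of these, with a threshold of 0.05. In this comparison 0.0435% of all probe sets were past the threshold and 0.441% had groups that did not overlap (0.311% with the stressed rats higher). The median log2 value of the arrays ran from 5.48 to 5.54. In the tenth of probe sets with the lowest signal, the arrays formed 2 clusters. The first cluster (array set 1) was made up of Control 1, Control 2, Control 3 and Control 4, and every other array fell in the second (array set 2). This split is not in the labels. Because it runs alongside the groups, values within array set 2 (2 controls, 6 stressed) are given for each of the measured members, and for other genes where they change direction or differ by over 1.5 times.

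Of the 8 measured genes, Sgk1 and Prr5 were higher in every stressed rat than in every control, and the groups overlapped for the other 6. Sgk1 was 1.63-fold higher and Prr5, which encodes the mTORC2 subunit Protor-1, 1.18-fold higher. Sgk1 was the 1 member past the threshold, while Prr5 stood just outside it (adjusted p = 0.051). The other genes lay between −0.040 and 0.11 on the log2 scale. The median of the 8, with Sgk1 among them, was 0.036, against 0.0039 over all probe sets tested. Regardless of direction, the median size of difference over all probe sets was 0.036, which is not directly comparable with the signed median of the 8. Sgk1 led to the choice of the set. Its place past the threshold and the median of the 8 are therefore descriptions and not results about the family.

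**Figure D1:**
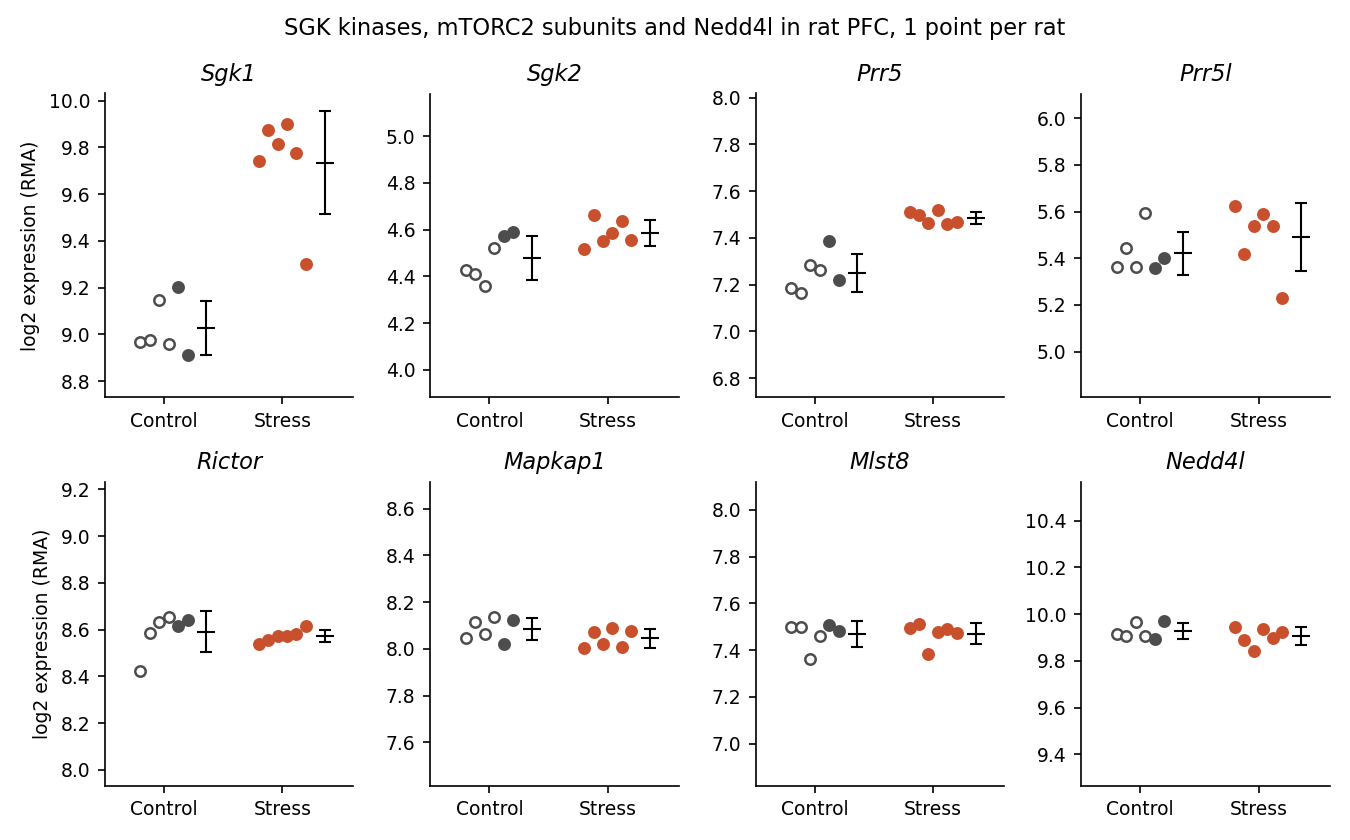
Log2 expression (RMA, vertical axis, the same span in each panel) of the 8 measured genes in 6 control and 6 stressed rats, 1 point per rat, with the mean ± SD as bars. Open points are array set 1 and filled points array set 2. Stressed rats lie above all controls for Sgk1 (at least 9.30 against at most 9.20) and Prr5 (at least 7.46 against at most 7.39), and the groups overlap in the other 6 panels.

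The kinases come first. In controls the log2 signal of Sgk1 was lowest at 8.91 and highest at 9.20, with a median of 8.97. In stressed rats it ran from 9.30 to 9.90, with a median of 9.79. The groups were separated by 0.10 log2 units, and the rats closest to each other were Stress 6 and Control 5. Stress 6 was the low one of its group, since the other 5 stressed rats lay between 9.74 and 9.90. The group means were 9.03 ± 0.12 and 9.73 ± 0.22 (SD, n = 6 each).

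The fitted difference of Sgk1 was 0.71 (SE 0.090, 95% interval 0.51 to 0.90), which is 1.43- to 1.87-fold. Its adjusted p was 0.00914 and its p ranked 3 among all probe sets, the values for which it was chosen. Within array set 2 the difference was 0.68 (95% interval 0.35 to 1.00), of nearly the same size. With 2 controls it was not past the threshold (adjusted p = 0.467), which 0.00622% of all probe sets passed there. Those 2 controls were the highest (Control 5, 9.20) and the lowest (Control 6, 8.91) of all 6. Over all arrays, Sgk1 stayed past the threshold when each of the 12 arrays was left out in turn. Without Stress 6 the difference was 0.79.

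Sgk1 has several start sites in the RefSeq annotation of GRCr8, and the array reads them together as 1 gene. The windows of 300 bases around 3 of them, all on the minus strand of chromosome 1, are shown because Sgk1 and Prr5 were the genes whose groups did not overlap. Each runs from 250 bases before the start to 50 after it, 5′ to 3′, and capitals mark a TATA box (TATAAA, searched on both strands). The positions are chr1:24807182-24807481 for site 1, chr1:24805521-24805820 for site 2 and chr1:24804782-24805081 for site 3.
Sgk1 start site 1: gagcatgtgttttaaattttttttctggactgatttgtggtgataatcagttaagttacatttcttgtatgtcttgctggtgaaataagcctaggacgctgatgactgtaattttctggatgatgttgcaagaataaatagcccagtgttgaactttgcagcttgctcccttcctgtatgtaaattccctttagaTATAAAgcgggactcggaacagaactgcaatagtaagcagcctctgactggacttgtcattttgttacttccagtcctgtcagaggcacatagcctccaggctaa
Sgk1 start site 2: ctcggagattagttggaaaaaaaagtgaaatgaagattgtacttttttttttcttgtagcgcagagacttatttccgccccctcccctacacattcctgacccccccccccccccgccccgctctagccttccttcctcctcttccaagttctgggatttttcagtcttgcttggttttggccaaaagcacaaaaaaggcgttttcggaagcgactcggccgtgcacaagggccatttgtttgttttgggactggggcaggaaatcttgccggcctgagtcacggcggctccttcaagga
Sgk1 start site 3: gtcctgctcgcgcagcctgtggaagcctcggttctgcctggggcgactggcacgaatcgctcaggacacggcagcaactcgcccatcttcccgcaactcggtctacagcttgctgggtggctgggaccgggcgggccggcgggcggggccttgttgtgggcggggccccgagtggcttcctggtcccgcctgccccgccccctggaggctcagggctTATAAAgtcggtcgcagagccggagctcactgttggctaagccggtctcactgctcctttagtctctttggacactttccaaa
The TATA box begins at position -55 in site 1 and at position -33 in site 3, and 14.2% of all 33469 promoter windows held one on either strand. Site 1 had 40.7% G and C, site 2 51.7% and site 3 66.0%, against a median of 51.7% over all windows. None of the 3 windows held the half-site of the glucocorticoid response element (AGAACA, 20.7% of all windows), the full palindromic glucocorticoid response element (0.439%) or the cAMP response element (TGACGTCA, 1.83%), each searched on both strands. This says only that these letters are not in these windows, and more distant sequence was not examined here.

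Sgk2 encodes the second SGK kinase, best known from liver, kidney and pancreas. Its probe set was dim, not far above the filter. Control values ran from 4.36 to 4.59 (median 4.47) and stressed values from 4.52 to 4.66 (median 4.57). All 6 stressed rats lay above the control median, but only 2 lay above every control. The difference of 0.11 (SE 0.045, 95% interval 0.0086 to 0.20) did not pass the threshold (adjusted p = 0.744). The controls of array set 1 had a mean of 4.43, those of array set 2 a mean of 4.58, and the stressed rats 4.59. Within array set 2 the difference was 0.0046, with an interval of −0.10 to 0.11 that also holds the difference over all arrays.

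Protor-1 and Protor-2, the subunits that bind Rictor and are not needed for the complex to hold together, were described next. In mice, loss of Protor-1 lowers SGK1 phosphorylation in the kidney. Prr5, the gene of Protor-1, had control values from 7.16 to 7.39 (median 7.24) and stressed values from 7.46 to 7.52 (median 7.48). The 6 stressed rats were packed closely (SD 0.026), more so than the controls (SD 0.081), and a gap of 0.070 separated the groups. Control 5, the highest control for Sgk1, was also the highest control for Prr5. The difference was 0.24 (SE 0.038, 95% interval 0.15 to 0.32, 1.11- to 1.25-fold), and by p it ranked 8 of 16085, directly after the 7 probe sets past the threshold.

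Within array set 2 the difference of Prr5 was 0.18 (95% interval 0.070 to 0.30, adjusted p = 0.639). The 2 controls there were Control 5 (7.39), the highest control, and Control 6 (7.22). What each contributed to this value was not separated from the array set. The side of the threshold on which Prr5 fell hung on small choices. It was past the threshold with a stricter filter on dim probe sets, with quality weights for arrays, with arrays centred on their medians and without Control 5 (adjusted p = 0.0071). It was not past it without any other single array (adjusted p up to 0.183). The size of the difference kept between 0.18 and 0.26 in every setting tried.

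**Figure D2:**
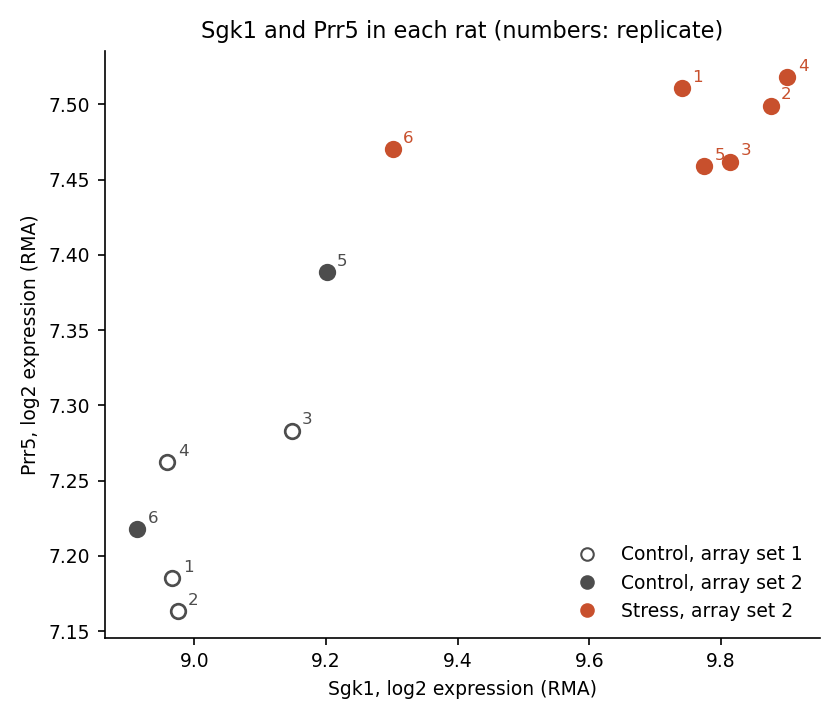
Log2 expression (RMA) of Sgk1 (horizontal axis) and Prr5 (vertical axis) in each of the 12 rats, with the replicate number beside each point. Open grey points are controls of array set 1, filled grey points controls of array set 2 and filled orange points stressed rats. Stress 6 has a low Sgk1 value (9.30) but a Prr5 value among the other stressed rats, and Control 5 is the highest control on both axes.

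The RefSeq window of Prr5 is shown for comparison with Sgk1. It lies at chr7:117693658-117693957 of GRCr8, on the plus strand, with the same layout and the same search. It held none of the 4 motifs, so it has no capitals, and its share of G and C was 69.0%.
Prr5 start site: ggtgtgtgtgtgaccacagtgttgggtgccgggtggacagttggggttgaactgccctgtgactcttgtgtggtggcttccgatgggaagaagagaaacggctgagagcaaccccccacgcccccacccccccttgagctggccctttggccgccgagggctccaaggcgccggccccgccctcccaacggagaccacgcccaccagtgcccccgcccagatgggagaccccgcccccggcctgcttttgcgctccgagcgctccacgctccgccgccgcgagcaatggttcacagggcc
In all, 7 of the 8 measured genes had a window in the RefSeq table, with 9 start sites between them. The TATA boxes of Sgk1 were the only matches to the 4 motifs in these 9 windows. Rictor (78.3%), Nedd4l (81.7%), Mapkap1 (64.0%) and Prr5l (57.3%) also had more G and C than the median window, and Mlst8 less (35.7%).

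Prr5l, the gene of Protor-2, had groups that overlapped. Its control values ran from 5.36 to 5.59 (median 5.38) and its stressed values from 5.23 to 5.62 (median 5.54). The stressed group held the highest and the lowest value of all 12 rats, the lowest being Stress 6. The difference was 0.069 (SE 0.064, 95% interval −0.068 to 0.21, adjusted p = 0.907) and 0.11 within array set 2 (95% interval −0.099 to 0.32). It was 0.12 without Stress 6 and 0.043 without Stress 1. These intervals overlap those of Prr5, and whether the genes differ from each other was not tested.

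The subunits that mTORC2 cannot do without lay close to their control levels. Rictor, the scaffold that defines the complex, had values from 8.42 to 8.66 in controls (median 8.62) and from 8.54 to 8.61 in stressed rats (median 8.57). All stressed values lay inside the control range, whose low end was Control 1 alone, and all lay below the control median. Its difference was −0.020 (95% interval −0.11 to 0.066, adjusted p = 0.966). It was −0.056 within array set 2 and −0.054 without Control 1, and it lay nearest to 0 without Control 4 (−0.0069). Without Control 3, Control 6 or Stress 1 it was −0.012, −0.010 and −0.013.

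Mapkap1 encodes Sin1, which brings substrates such as SGK1 and AKT to the complex. Control values ran from 8.02 to 8.14 and stressed values from 8.00 to 8.09, and 3 stressed rats lay below every control. The difference of −0.040 (95% interval −0.11 to 0.029, adjusted p = 0.889; −0.028 within array set 2) was within the spread of the groups.

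Mlst8 encodes the small subunit shared by mTORC1 and mTORC2. Values ran from 7.36 to 7.51 in controls and from 7.38 to 7.51 in stressed rats, so the ranges coincided almost fully. The difference was 0.0028 (95% interval −0.072 to 0.078, adjusted p = 0.996), and −0.024 within array set 2. A dimmer probe set of Mlst8 gave −0.012 (95% interval −0.16 to 0.13). Over all arrays the intervals of Rictor, Mapkap1 and Mlst8 end at 0.078 or below, while the lower end of the Prr5 interval is 0.15. Within array set 2 the Prr5 interval begins at 0.070, and those of Mapkap1 (to 0.076) and Mlst8 (to 0.078) overlap it. The interval of Rictor ends at 0.032 there. Differences between these genes were not tested.

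Nedd4l, the ligase that SGK1 restrains, had control values from 9.89 to 9.97 and stressed values from 9.84 to 9.95. The groups overlapped, with 2 stressed rats below every control. The difference was −0.022 (SE 0.030, 95% interval −0.086 to 0.043, adjusted p = 0.949), and −0.027 within array set 2. It ran from −0.030 to −0.0086 when single arrays were left out, and was nearest to 0 without Stress 3. The interval over all arrays corresponds to 0.942- to 1.03-fold.

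**Figure D3:**
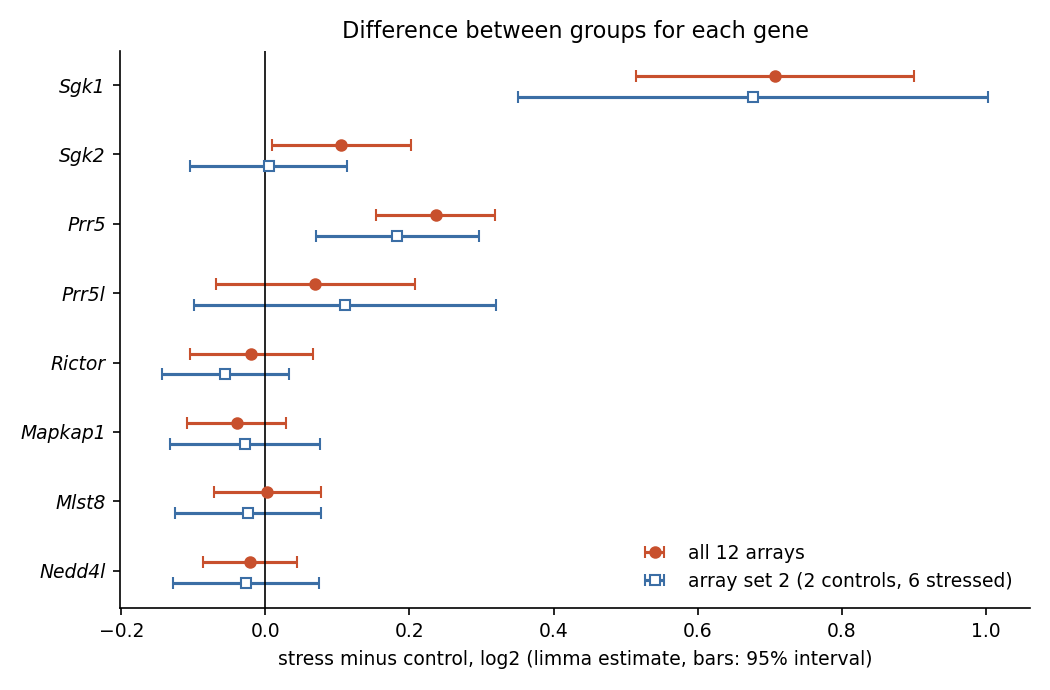
Difference between stressed and control rats (log2, horizontal axis) for each gene, with the 95% interval, over all 12 arrays (filled orange circles) and within array set 2 (open blue squares, 2 controls and 6 stressed). The intervals of Sgk1 and Prr5 lie above 0 in both, the interval of Sgk2 above 0 only over all arrays, and those of the other 5 genes include 0.

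The rest of the pathway was read from 9 hand-written lists of 88 genes, of which 77 were measured with a mean above 4. Over these, 44 were higher and 33 lower in stressed rats, the median difference was 0.0085, and 1 gene was past the threshold. Of all probe sets tested, 53.0% were higher in stressed rats, which is the baseline for the counts of each list. Groups did not overlap for 3 of the 77 genes (3.90%, against 0.441% of all probe sets). These were Tsc22d3, Slc2a1 and Pik3r1, all higher in stressed rats. The lists were written with earlier results of these data known, and Tsc22d3 was already known to be high. The share is therefore a description and not a result about the pathway.

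mTOR itself, the catalytic subunit, was at −0.0029 (SE 0.033, adjusted p = 0.996; −0.016 within array set 2). Of the 5 measured genes for mTOR and the partners of mTORC2, 0 passed the threshold. Telo2, which helps to assemble mTOR, was at 0.090 (adjusted p = 0.742) and Deptor, an inhibitor of mTOR, at −0.064. Arhgef3, whose protein inhibits mTORC2, was at −0.031 and at 0.0047 within array set 2. The mTORC1 list likewise had 0 of 5 past the threshold. There Akt1s1, which encodes the mTORC1 inhibitor PRAS40, was at −0.077 (−0.048 within array set 2). Tbc1d7 and Tsc1, subunits of the TSC complex, were at −0.042 and −0.022 (−0.039 within array set 2 for Tsc1).

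Kinases that share the same activation steps showed no difference past the threshold (0 of 9 measured). Pdpk1, the gene of PDK1, was at −0.027 (SE 0.030, adjusted p = 0.933). Akt1 was at −0.046 and Akt2 at −0.079 (adjusted p of 0.923 and 0.839). The values inside array set 2 were −0.13 and −0.14. Pkn2 was at 0.079 (0.017 within array set 2) and Prkcb at 0.051.

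Among PI3K subunits and phosphatases 9 of 10 were higher, none past the threshold. Pik3r1, the regulatory p85-alpha subunit of PI3K, ran from 9.23 to 9.33 in controls and from 9.35 to 9.54 in stressed rats. The ranges did not touch, and the difference was 0.17 (SE 0.037, adjusted p = 0.224; 0.16 within array set 2). Phlpp1, a phosphatase that removes the hydrophobic motif phosphate of AKT, was at 0.088 (0.035 within array set 2). Pik3ca, a catalytic subunit, was at 0.038 and turned to −0.038 within array set 2.

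Substrates of SGK kinases were divided, with 5 of 9 higher. Ndrg1, whose phosphorylation is widely used as a readout of SGK1 activity, ran from 8.74 to 9.29 in controls and from 9.19 to 9.45 in stressed rats. These ranges overlapped, and its difference was 0.34 (SE 0.083, adjusted p = 0.323; 0.25 within array set 2). The forkhead factors Foxo3 and Foxo4, which SGK1 keeps out of the nucleus, were at 0.14 (adjusted p = 0.614) and 0.10 (adjusted p = 0.796). The arrays read mRNA and not the phosphorylation of these substrates.

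Channels and transporters that SGK kinases are known to raise had 12 of 17 measured members higher and 0 past the threshold. Slc2a1, the glucose transporter GLUT1 of the blood-brain barrier and glia, ran from 9.75 to 9.96 in controls and from 10.02 to 10.23 in stressed rats. Each stressed rat was above each control, and the difference was 0.25 (SE 0.048, adjusted p = 0.137; 0.26 within array set 2). The epithelial sodium channel subunits Scnn1a and Scnn1g were dim, with control means of 4.03 and 4.70, and their differences were 0.13 (0.039 within array set 2) and 0.10 (adjusted p of 0.742 and 0.806).

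Ligases of the NEDD4 family and their adaptors had 10 of 14 members higher, with 0 past the threshold and none outside −0.052 to 0.087. Nedd4, the close relative of Nedd4l, was at −0.052 (−0.11 within array set 2), the ligase Smurf1 at 0.087 and Usp2, a ubiquitin protease, at 0.073. In the list on SGK1 turnover and partners, Syvn1 and Rbx1, which take part in ubiquitin ligases, were at −0.021 and 0.081 (0.032 within array set 2 for Rbx1). Tsc22d3 encodes GILZ, a glucocorticoid-induced protein that binds SGK1, and it was the 1 gene of all 9 lists past the threshold. It ran from 6.73 to 7.07 in controls and from 7.45 to 7.74 in stressed rats, a difference of 0.62 (SE 0.064, adjusted p = 0.00112), and was known to be high before the lists were written.

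The corticosteroid receptors Nr3c1 and Nr3c2, through which Sgk1 is induced in other tissues, did not pass the threshold. Nr3c1 was at −0.046 (adjusted p = 0.893; −0.078 within array set 2) and Nr3c2 at −0.085 (adjusted p = 0.910; −0.18 within array set 2). Hsd11b1, which regenerates active glucocorticoid inside cells, was at −0.017 (−0.12 within array set 2). All 4 measured genes of this list had lower means in stressed rats, with 0 past the threshold.

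**Figure D4:**
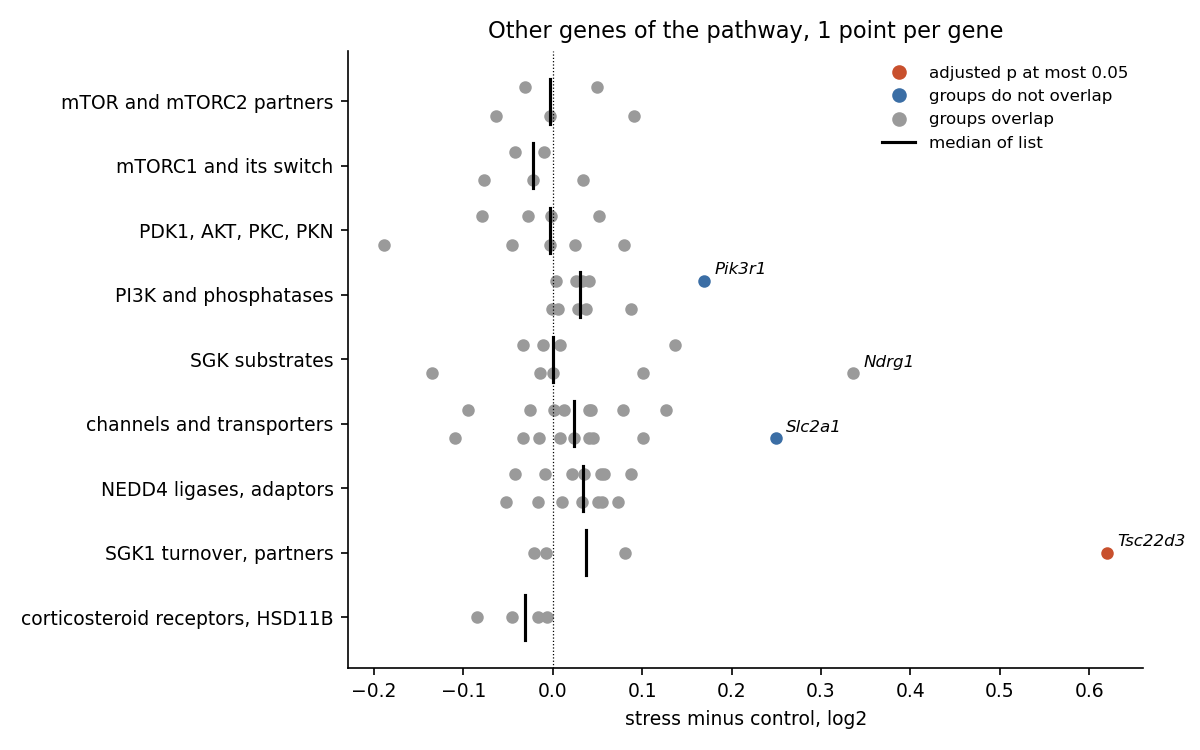
Difference between stressed and control rats (log2, horizontal axis) for the 77 measured genes of the 9 pathway lists, 1 point per gene, with the median of each list as a black line. Tsc22d3 (0.62, orange) is past the threshold, Slc2a1 (0.25) and Pik3r1 (0.17, blue) have groups that do not overlap, and list medians lie between −0.031 and 0.037.

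Markers of cell types were read on the same arrays. Of 8 markers of cortical excitatory neurons 7 were measured with a mean above 4, the brightest at 11.9. Sgk1 is made in several brain cell types, oligodendrocytes among them. All 10 measured oligodendrocyte markers had higher means in stressed rats, 0 of them past the threshold. The centred mean of that list ran from −0.34 to 0.25 in controls and from −0.052 to 0.22 in stressed rats, so the groups overlapped. With this mean as a covariate the differences were 0.65 for Sgk1 (adjusted p = 0.070) and 0.21 for Prr5 (adjusted p = 0.194).

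Of the endothelial markers 6 of 9 were lower in stressed rats, with a list mean from −0.019 to 0.14 in controls and from −0.15 to −0.0050 in stressed rats. Their part in the differences of Sgk1, Prr5 and Slc2a1 was not tested. Choroid plexus markers had a list mean of 2.63 in Control 5, and none of the remaining arrays exceeded −0.033. Without Control 5 the differences were 0.74 for Sgk1 and 0.26 for Prr5. Striatal markers overlapped widely (−0.59 to 0.98 in controls, −0.63 to 0.76 in stressed rats), with 8 of 8 lower in stressed rats. Blood markers ran from −0.53 to 0.94 in controls and from −0.79 to 0.053 in stressed rats, with 4 of 4 lower. Only Control 2 (−0.53) made these blood ranges overlap, and every other control lay above every stressed rat. The list means differed by −0.48 (striatal) and −0.67 (blood), and by −0.44 and −0.58 within array set 2. The part of striatal and blood markers in the differences of Sgk1, Prr5 and Slc2a1 was not tested either.

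The genes most like Sgk1 from rat to rat were sought after each group mean had been taken off, over the 12 arrays and 14846 other genes. Likeness was Pearson's r, given as a description, since the highest of so many values is high in any data. Ythdc1, a nuclear reader of N6-methyladenosine in RNA, came first with 0.971, and it was 0.966 within controls and 0.982 within stressed rats. Arsk (0.929), Arl2 (0.905), Slc48a1 (0.898) and Sarnp (0.895) came next. None of the 5 differed between groups past the threshold (differences from −0.10 to 0.017). All 5 had their lowest deviation in Stress 6, and without that array Ythdc1 was at 0.952 and Slc48a1 at 0.673. Prr5 had a likeness of 0.474 to Sgk1 (0.824 within controls, 0.392 within stressed rats) and 0.688 without Stress 6. Ndrg1 had one of 0.392 (0.147 within controls, 0.806 within stressed rats, 0.227 without Stress 6). Nedd4l had one of −0.199 (−0.129 without Stress 6).

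**Figure D5:**
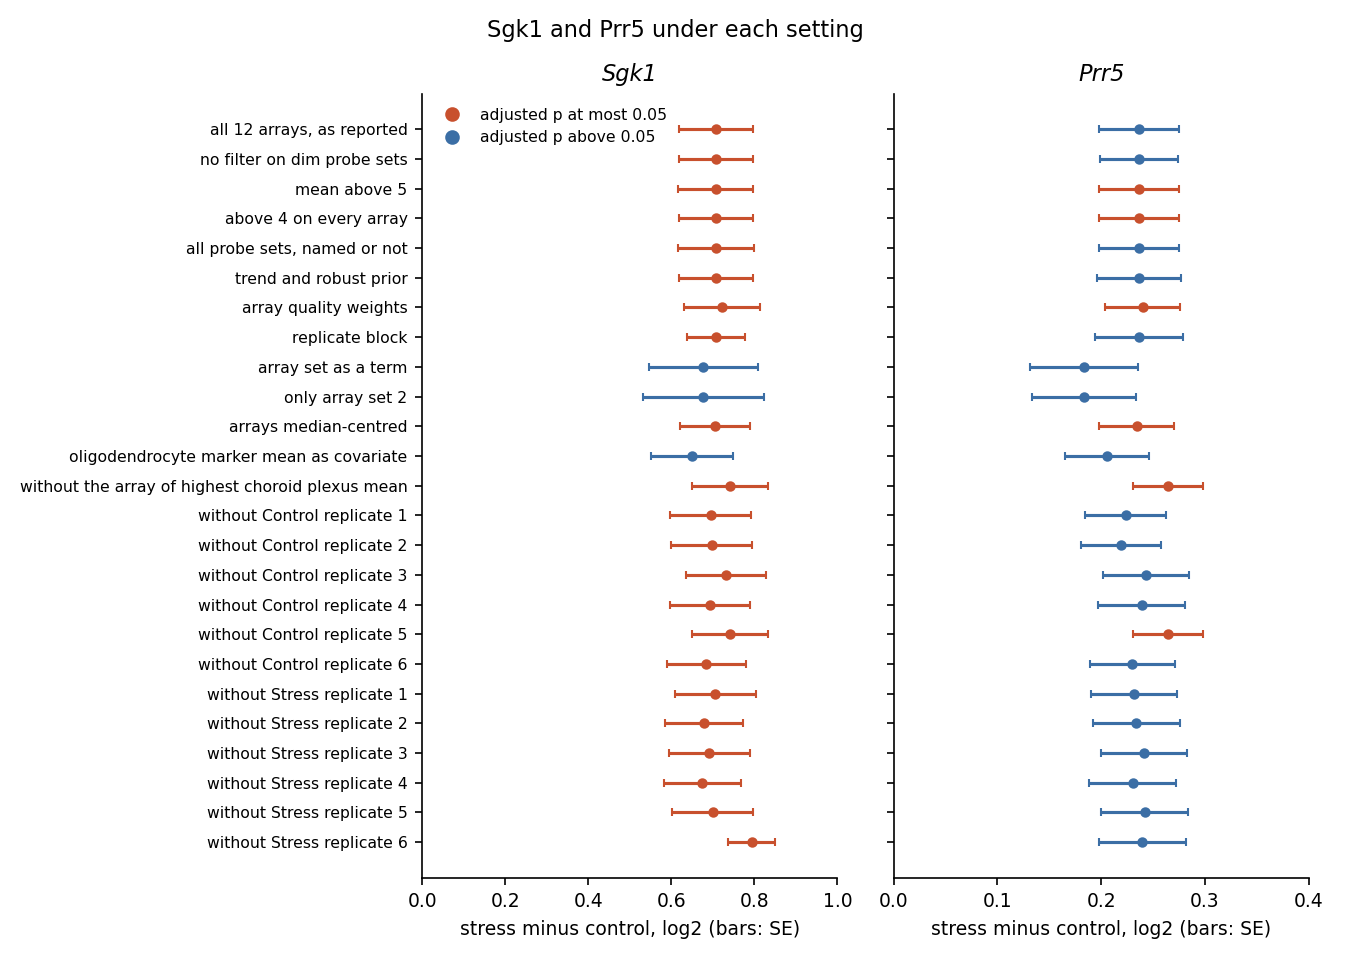
Difference between stressed and control rats (log2, horizontal axis, bars are the SE) for Sgk1 and Prr5 under the reported setting and each alternative, which are named on the vertical axis. Orange points have an adjusted p of at most 0.05 and blue points a higher one. The differences stay between 0.65 and 0.79 for Sgk1 and between 0.18 and 0.26 for Prr5.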

How the data were processed

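Expression was measured in PFC from 12 rats, 6 per group, on Affymetrix Rat Gene ST arrays, from 250 ng of RNA each. The authors deposited log2 expression values, 1 per probe set and array, computed by RMA (oligo, version 1.58.0). This method evens out the signal distribution between arrays at the level of single probes. A change shared by most genes is therefore not seen, and differences of dim probe sets are understated. The values per probe set can still differ in distribution between arrays, and their medians ran from 5.48 to 5.54. Arrays have no read depth, and their number limits the precision.

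Platform annotation gave exactly 1 gene symbol for 18644 of 29214 probe sets, and 99.0% of these symbols were brought up to date with a RefSeq table of GRCr8. limma (version 3.58.1, R 4.3.3) was fitted with group as the only term to those with a mean above 4, two-sided, with Benjamini-Hochberg adjustment. The test, the level, the adjustment and the threshold of 0.05 follow the study's methods. The fit was tested on simulated data.

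Members and lists were chosen with earlier results of these data known. Genes named were the 9 members, 7 further genes fixed by name (Mtor, Pdpk1, Akt1, Akt2, Ndrg1, Nr3c1 and Nr3c2; 1 more is not reported here), the 3 genes of smallest p in each pathway list with any past the threshold, and the 5 genes most like Sgk1. Promoter windows came from RefSeq. Labels give the rats of the groups the same replicate numbers and no pairing. Alternatives covered filters, priors, weights, blocks, array sets, covariates, scaling and single arrays. Other time points were not analysed here.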

Additional observations from a re-analysis of the deposited data

Results flagged for a closer look

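Single rats stood apart from their group in 5 of 18 groups examined (9 probe sets in each of the 2 groups), the gap to the nearest rat being a larger share of the group's range than Dixon's 95% critical value. Chance alone gives this in about 1 in 20 groups. Sgk1 in Stress 6 was at 9.30, while the other stressed rats were at 9.74 to 9.90. Prr5l in Control 4 was at 5.59, while the other controls were at 5.36 to 5.44. Rictor in Control 1 was at 8.42, while the other controls were at 8.58 to 8.66. Mlst8 was low in Control 3 (7.36, others 7.46 to 7.51) and in Stress 3 (7.38, others 7.47 to 7.51). The cause of these values was not tested.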

How the results depend on the processing

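All results rest on 12 arrays, and 4 of 6 controls lie in array set 1, which holds no stressed rat, so that array set and group can be told apart only through Control 5 and Control 6. With the array set as a term, or within array set 2, 1 probe set was past the threshold over all genes and 0 members were. Sgk1 was then at 0.68 (SE 0.131, adjusted p = 0.303, and SE 0.145, adjusted p = 0.467). With the oligodendrocyte mean as a covariate 3 probe sets and 0 members were past it, and Sgk1 was at 0.65 (adjusted p = 0.070).

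The members past the threshold were 2, Sgk1 and Prr5, with a mean above 5, with values above 4 on every array, with array weights, with centred arrays and without the array of highest choroid plexus mean (Prr5 adjusted p of 0.0477, 0.0493, 0.0279, 0.0282 and 0.0071). Without single arrays the probe sets past the threshold ran from 4 to 8, the members past it from 1 to 2, and Sgk1 from 0.67 to 0.79. Mlst8 changed sign, at −0.024 with the array set as a term and within array set 2, −0.00057 with the oligodendrocyte covariate, −0.012 in its other probe set and from −0.019 to 0.021 without single arrays. Sgk2 and the dim probe set of Mlst8 could not be given with a mean above 5. Other members kept their direction in every alternative.

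With the replicate number as a block, 6 probe sets were past the threshold, Sgk1 stayed at 0.71 (adjusted p = 0.014) and Prr5 at 0.24 (adjusted p = 0.198). The deviations of rats with the same number correlated between −0.142 and 0.422 across probe sets, and 3 of 6 controls correlated best with their own number. These values do not decide whether the rats were paired. The numbers were not taken to pair them because the labels give no pairing.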

Other observations

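Several members varied less among stressed rats than among controls. The SD was 0.026 against 0.087 for Rictor, 0.026 against 0.081 for Prr5 and 0.055 against 0.095 for Sgk2. It was larger in stressed rats for Sgk1 (0.22 against 0.12), Prr5l (0.15 against 0.091) and Nedd4l (0.039 against 0.034). The stressed rats are all in array set 2 and the controls in both sets, so a control SD also holds any difference between the sets. The larger SD of Rictor in controls and of Sgk1 in stressed rats each includes a rat named above as standing apart. No test of the spread was run.

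Stress 6 was the lowest stressed rat for Sgk1 and for Prr5l, and its Prr5 value deviated by −0.016 from the stressed mean.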
